A study of Canis lupus familiaris with 17 samples.

Results

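The comparison described here sets scribRES cells against scribKD cells, both cultured with tetracycline (TET) and both carrying the knockdown of scribble, and uses 8 of the 16 libraries of the series, 4 of each population. All 21571 transcripts of these libraries were included, and 13180 with a mean above 1 RPKM (reads on a transcript scaled to its length and to the library's total) over the 8 libraries were tested. MDCK-II cells are epithelial cells of canine kidney, kept as a permanent line. Their scribKD derivative makes a hairpin RNA against scribble when TET is present, and scribRES is the population of this line left after prolonged culture in TET, which was then grown up again without it, so all scribRES libraries come from 1 selected population. Dishes received 1300000 cells each, with TET at 10 μg/ml from plating on for scribKD and scribRES cells, and RNA was collected after 67 h. The control is the scribKD line without TET, grown alongside in both experiments, and its levels are given for reference only. scribRES cells were sequenced in experiments 2 and 3 of the series, with 2 libraries of each population in each, and the question is which transcripts differ between the population selected in TET and the unselected line when scribble is lowered in both.

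Scribble is a scaffold protein of the basolateral side of epithelial cells and part of the machinery that sets apical-basal polarity. Epithelial cells that lose it while surrounded by normal neighbours can be eliminated by cell competition, and in MDCK cells this elimination is tied to sensitivity to compaction, with activation of stress kinase signalling and of the p53 pathway. p53 is a transcription factor that slows proliferation or triggers death, partly through the cell cycle inhibitor Cdkn1a and the ubiquitin ligase Mdm2, which in turn restrains p53.

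Reads on transcripts ranged from 12612666 to 22012611 in the 8 libraries, and 3 reads on a transcript of 2000 bases correspond to 0.0681 to 0.119 RPKM, counting error only. The 2 libraries of a population and experiment differed by a median of 0.074 to 0.089 on the log2 scale, and by more than sampling noise, with a mean chi-square per transcript between 1.73 and 4.14. Scrib (XM_003431819.1), the targeted gene, had 16.2 and 16.2 RPKM in scribKD cells of experiment 2 and 12.1 and 12 in experiment 3, and 12.3 and 12.2 followed by 14.8 and 13.9 in scribRES cells. Both populations lay below the 4 controls (26.0 to 34.6 RPKM). Their log2 difference was -0.08 on average (SE 0.04, limma adjusted p = 0.17), -0.40 in experiment 2 and 0.24 in experiment 3, and it differed between the experiments by 0.64 (adjusted p = 0.0013). Of the epithelial kidney markers with a name in the files, Pax8, Krt19, Muc1 and Spp1 were expressed in every library. Cdh16, Lrp2 and Krt7† did not exceed 1.98, 2.76 and 3.62 RPKM. Of markers of other cell types, Vim was high in all 8 libraries (1380 to 2090 RPKM), whereas Dcn, Vwf and Cd8a did not exceed 0.21 RPKM, and the sum of the 3 named leukocyte and endothelial markers was 13.6 to 47.0 RPKM in scribKD and 13.4 to 28.7 in scribRES libraries, almost all of it Flt1. In bulk RNA a change in the share of some cells and a change of the level per cell cannot be told apart.

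A transcript was called when the limma test of log2(RPKM + 0.1) gave an adjusted p under 0.05 (Benjamini-Hochberg over all tested transcripts) and the log2 difference exceeded 0.5 in size. Averaged over both experiments 1441 transcripts were called, 10.9% of those tested, 884 higher (6.71%) and 557 lower (4.23%) in scribRES cells. Without the fold threshold 7299 passed, of which 48.9% were higher in place of 61.3%. Within experiment 2 the number was 3117 (23.6%, with 12.1% higher and 11.5% lower), within experiment 3 it was 816 (6.19%, with 4.26% higher and 1.93% lower). The median size of the difference was 0.289 in experiment 2 and 0.152 in experiment 3 on the log2 scale, with the same median standard error of 0.078. By the test of the difference between experiments, 2428 transcripts (18.4%) passed, 9.85% toward higher and 8.57% toward lower values in experiment 3. These p-values measure the spread between libraries of 1 experiment. The paper counts 2 biological replicates of scribRES cells, as many as their experiments. The test of the difference between experiments thus cannot tell a change with the experiment from variation between cultures. With the experiment as the unit, 2 against 2, limma called 0 transcripts (1346 at an unadjusted p under 0.05), and without a term for the experiment it called 291.

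Of the 424 transcripts called within both experiments, 366 moved the same way and 58 in opposite ways, which is 2.78% and 0.440% of those tested. Among the former 234 were higher (1.78%) and 132 lower (1.00%) in scribRES cells. For 86 of the 366 the size still differed between experiments, and in 68 of these the change was larger in experiment 2. Of the 2693 transcripts called in experiment 2 only, 1931 had the same sign in experiment 3 and 1599 differed between experiments by test. Of the 392 called in experiment 3 only, 263 had the same sign in experiment 2 and 180 differed. Across transcripts the differences of the experiments had a Pearson correlation of 0.336 and a Spearman correlation of 0.373 (n = 13180 transcripts, which are not independent replicates).

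**Figure D1:**
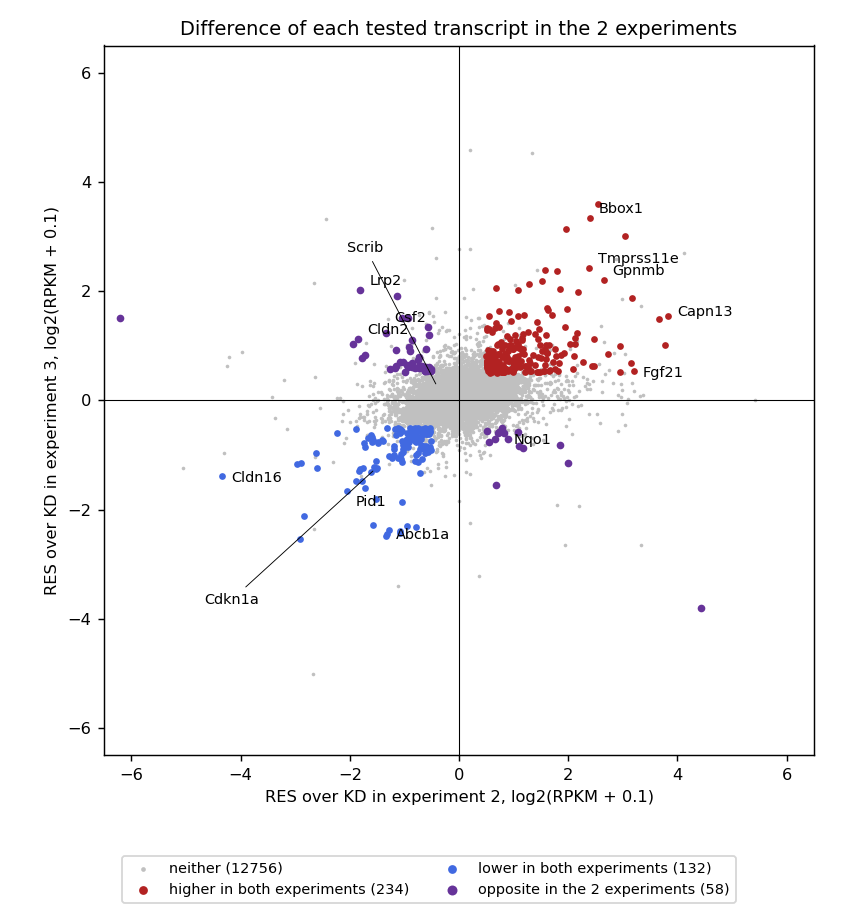
Log2 difference of scribRES over scribKD for each of the 13180 tested transcripts in experiment 2 (horizontal) and experiment 3 (vertical), coloured by the calls within the experiments. The cloud is wider along experiment 2, 234 transcripts lie in the upper right class, 132 in the lower left class and 58 in the classes of opposite sign.

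Gene names were at hand for 1769 of the tested transcripts. Most come from the study's gene tables, which list transcripts it found changed between scribKD and control cells or between scribRES and scribKD cells in these same libraries. Of named transcripts 23.9% were called on average over both experiments and within both experiments 7.46% were higher and 3.56% lower, so named genes hold more changed ones than all tested transcripts, and their counts are not independent evidence of a direction. For named transcripts the calls were 18.3% higher and 15.5% lower within experiment 2 and 17.6% higher and 6.56% lower within experiment 3. A dagger (†) marks a name found only in the second of these tables, in which 34 of 306 names shared with the first differ from it. For Cdkn1a, Fam211a, Dsg3 and Fads1 the tables disagree and the name of the first is used.

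The 10 largest rises with a name that were shared by both experiments were those of Bbox1†, Capn13, Pla2g16, Gpnmb, Nr4a1, Tmprss11e†, Reps2†, Fam211a, Fgf21 and Fgfbp1. Bbox1† (XM_534096.3), the last enzyme of carnitine synthesis, had 1.58 and 1.92 RPKM in scribKD cells of experiment 2 and 0.727 and 0.811 in experiment 3, and 9.84, 9.33, 8.97 and 8.39 in the scribRES libraries. The 4 scribRES libraries were close to each other and far above every other library, controls included (1.37 to 1.73). The mean difference was 2.87 (log2, SE 0.10, limma adjusted p = 1.7e-06), with 2.39 in experiment 2 and 3.34 in experiment 3, and the difference of 0.95 between experiments passed the test (adjusted p = 0.0071). Gpnmb (XM_539472.3), a transmembrane glycoprotein of lysosomes, was even in scribKD cells at 26.8, 26.5, 27.4 and 28.2 RPKM and reached 174, 162, 120.5 and 137 in scribRES cells. Its control libraries had 11.5 to 16.0 RPKM, so scribRES cells were the farthest of the 3 populations from control. Its rise was 2.42 on average (SE 0.05, limma adjusted p = 2.2e-07), with 2.65 in experiment 2 and 2.20 in experiment 3. The difference of -0.45 between experiments (limma adjusted p = 0.0082) was too small in size to be called. Tmprss11e† (XM_539295.4), a serine protease of the cell surface, was lower in experiment 3 than in experiment 2 in all 3 populations, with scribKD levels of 5.87 and 5.91 and then 1.65 and 2.11 RPKM and scribRES levels of 32.7 and 29.4 and then 10.5 and 10.3. The differences within the experiments were nonetheless 2.38 and 2.42.

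Other rises were larger in experiment 2. Capn13 (XM_540139.3), a calpain protease, had 3.02 and 3.06 RPKM in scribKD and 42.3 and 46.9 in scribRES cells of experiment 2. In experiment 3 it had 21.6 and 29.5 against 80.0 and 67.8, and controls went from 5.16 and 7.03 to 60.5 and 51.7. The rise was thus 3.83 in experiment 2 and 1.54 in experiment 3, a difference of -2.29 (SE 0.20, limma adjusted p = 0.00021), and the higher baseline of experiment 3 was shared by the controls. Fgf21 (XM_541510.2), a hormone-like growth factor that stressed cells secrete, had 31.5 and 32.0 RPKM in scribKD and 293 and 291 in scribRES cells of experiment 2, and 124 and 154 against 204 and 195 in experiment 3. Nr4a1 (NM_001003227.1), a nuclear receptor of the immediate early class, went from 1.21 and 1.12 to 17.9 and 16.6 RPKM in experiment 2 and from 27.3 and 41.1 to 68.5 and 67.5 in experiment 3. For Nr4a1 the scribRES libraries of experiment 2 lay below the scribKD libraries of experiment 3, so the populations separated only within an experiment. Fam211a had 2.53 to 17.3 RPKM in scribKD and 21.5 to 27.0 in scribRES libraries, which did not overlap. Pla2g16, a phospholipase, had 0.268 and 0.145 RPKM in scribKD cells of experiment 2, where as few as 6 reads covered it, against 4.15 and 3.29 in scribRES cells. In experiment 3 it had 2.18 and 2.96 against 7.18 and 7.39, so the rise was 3.66 and then 1.48. Reps2†, an adaptor of endocytosis, and Fgfbp1, which releases fibroblast growth factors from the matrix, rose by 1.97 and 1.79 on average, and Fgfbp1 in scribRES cells (11.8 to 13.8 RPKM) was near its lower control libraries (13.0 to 20.4).

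The 10 largest shared falls with a name were those of Cldn16, Abcb1a, Pid1, Sftpd†, Irx2†, Sytl1, Esyt3, Id1†, Cdkn1a and Pter†, in this order. Cldn16 (XM_845175.2), the claudin of the tight junctions that take up magnesium in the kidney, had 12.5 and 13.4 RPKM in scribKD and 0.844 and 0.343 in scribRES cells of experiment 2, and 8.84 and 8.26 against 2.92 and 3.50 in experiment 3. Its controls were higher than both (17.8 to 28.6), so the order control, scribKD, scribRES held in both experiments. The mean fall was -2.86 (SE 0.21, limma adjusted p = 3.5e-05), larger in experiment 2, where as few as 4 reads covered it in a scribRES library. Abcb1a (AF045016.1), the multidrug efflux pump P-glycoprotein, was at 7.39, 9.15, 8.24 and 7.27 RPKM in scribKD cells and at 3.25, 3.23, 1.21 and 1.49 in scribRES cells. It was the only one of these 10 whose fall was larger in experiment 3 by test (difference -1.12, adjusted p = 0.0052), and the controls were lower still (0.442 to 1.40). Pid1 (XM_003433320.1), an adaptor of insulin receptor signalling, fell from 16.2 to 20.2 RPKM to 4.16 to 5.71, and Sytl1 (XM_003433852.1), a synaptotagmin-like protein of secretory vesicles, from 21.9 to 27.4 to 7.14 to 8.01, the latter close to control (5.49 to 7.29). Cdkn1a (XM_532125.3) had 688, 636, 487 and 438 RPKM in scribKD cells and 226, 233, 194 and 195 in scribRES cells. All 4 scribRES libraries were below every scribKD library and above every control (108 to 135), and the fall of -1.39 (SE 0.04, adjusted p = 1.7e-06) was -1.53 in experiment 2 and -1.25 in experiment 3.

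Esyt3, a tether between the endoplasmic reticulum and the plasma membrane, fell from 5.21 to 6.45 RPKM to 1.67 to 2.42, and Irx2†, a homeobox transcription factor, from 3.32 to 5.43 to 0.825 to 1.88. Sftpd†, a collectin of innate defence, had 28.7 and 31.6 RPKM in scribKD and 4.17 and 5.57 in scribRES cells of experiment 2 but 62.8 and 68.8 against 33.7 and 33.2 in experiment 3, so its scribRES libraries of experiment 3 lay above the scribKD libraries of experiment 2. Id1†, an inhibitor of differentiation induced by BMP signals, had 149 and 145 against 33.3 and 29.4 RPKM and then 60.0 and 56.4 against 40.2 and 37.2. Its fall of -2.23 in experiment 2 and -0.59 in experiment 3 differed by 1.64 (SE 0.10, limma adjusted p = 4.8e-05), and in scribRES cells it was at a similar level in both. Pter† fell by 1.32 on average.

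**Figure D2:**
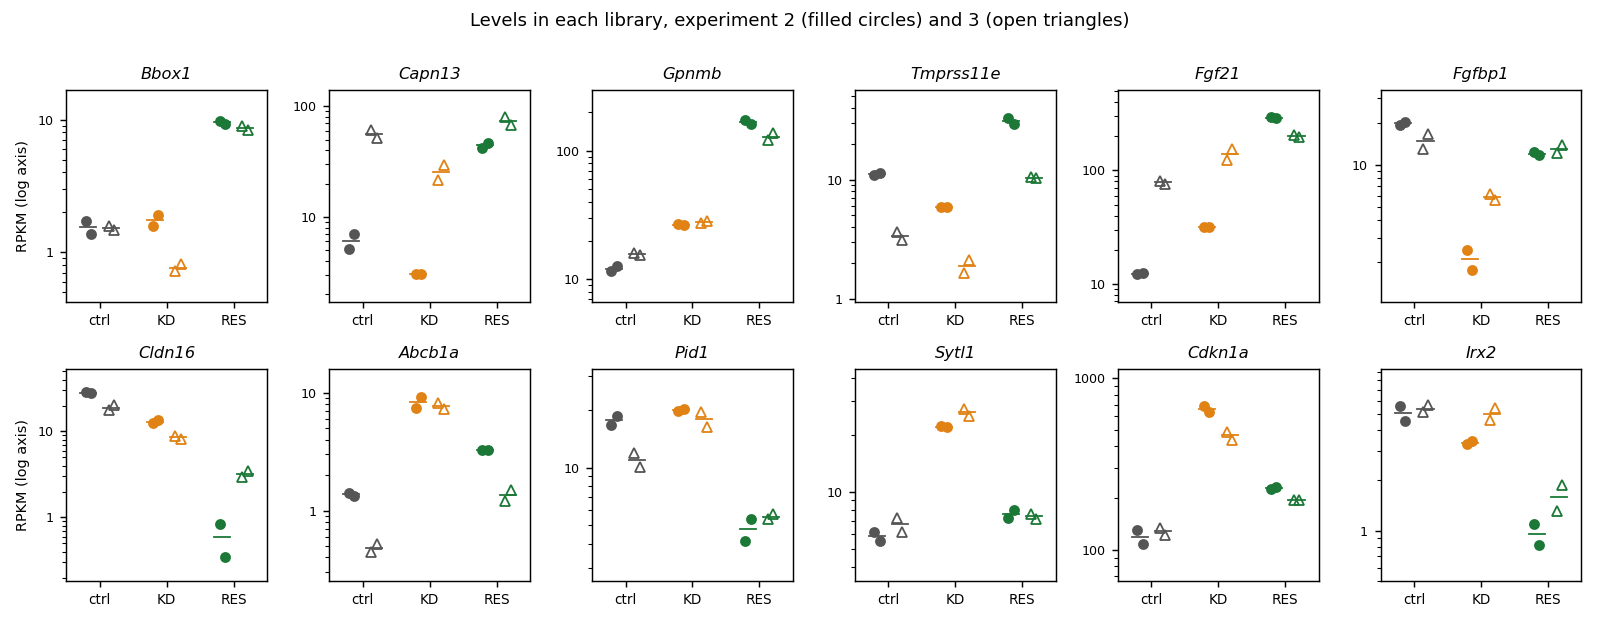
RPKM on a log axis in each library of control (grey), scribKD (orange) and scribRES (green) cells for 6 of the largest shared rises (top) and 6 of the largest shared falls (bottom), with filled circles for experiment 2, open triangles for experiment 3 and bars at the means of 2 libraries. In all 12 genes drawn the 4 scribRES libraries lie on 1 side of the 4 scribKD libraries. Nr4a1 and Sftpd†, where these libraries overlap across experiments, are not drawn. The scribKD level is higher in experiment 3 than in experiment 2 most clearly in Capn13, Fgf21 and Fgfbp1.

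Over all tested transcripts the 4 scribRES libraries lay above the 4 scribKD libraries in 1293 (9.81%) and below them in 1326 (10.1%). Of the 234 transcripts called higher in both experiments 178 were separated in this way, and of the 132 called lower 98 were. In 44 of the former and 32 of the latter the difference was over 2-fold within each experiment.

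Gene lists of pathways were then read for the members with a name. Each count on average over both experiments is to be read against the 15.7% of named transcripts called higher and 8.20% called lower. The lists and members were chosen with earlier results of these data known. Members named in another source can also be on the study's list for this comparison. Among 16 tested p53 targets, 6 were lower and 2 higher in scribRES cells on average over both experiments, with a list median of -0.08 against -0.002 over all tested transcripts, and 8 of the 16 are on the study's own list for this comparison. The 4 that fell within both experiments were Cdkn1a, Mdm2, Aen and Ccng1. Mdm2 (AB031276.1) had 136, 144, 148 and 134 RPKM in scribKD and 68.3, 72.5, 77.4 and 78.9 in scribRES cells, the latter within the range of the 4 controls (64.6 to 85.5), a fall of -0.92 (SE 0.04, limma adjusted p = 4.5e-06). Aen, a nuclease of apoptosis, fell from 71.8 to 104 RPKM to 43.7 to 50.9 (-0.90). Ccng1, a cyclin chosen here after its values were seen, fell by 0.73 on average, and its mean of 154 RPKM in scribRES cells lay between those of scribKD (254) and control cells (102). Serpinb5, a serpin of epithelial cells, was called on average (-0.59) and within experiment 3, and Epha2, an ephrin receptor, on average (-0.51) and within experiment 2. The 2 that rose were Plk3, a stress-responsive kinase (0.98), and Tnfsf10†, the death ligand TRAIL (0.62, named after its values were seen). Btg2, an antiproliferative gene, was called lower within experiment 2 (-0.54) and not within experiment 3 (0.45), a difference of 0.99 (limma adjusted p = 0.0058).

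Genes of interferon response and antigen presentation were called in 1 direction. Of 15 tested, 11 were higher on average and 0 lower, 7 of them within both experiments. At an unadjusted p under 0.05 the limma test had 14 higher and 0 lower, and limma with voom weights on the recovered reads called 11 higher and 0 lower. Tapbp, which loads peptides onto class I molecules, had the only negative mean (-0.05, adjusted p = 0.45), with -0.38 in experiment 2 and 0.28 in experiment 3, a difference of 0.66 (adjusted p = 0.0022). The list median was 0.63 in experiment 2 and 0.77 in experiment 3, against -0.025 and 0.016 over all tested transcripts. 11 of the 15 are on the study's list for this comparison and 6 are named only there. Without the latter, 5 of 9 were higher, against 12.3% of transcripts named in another source. Some of these 9 are on the study's list as well, so this count is not free of its selection. Isg20, an exonuclease induced by interferon, had 9.74 and 10.8 RPKM in scribKD and 73.8 and 63.3 in scribRES cells of experiment 2, and 29.1 and 38.4 against 64.7 and 56.2 in experiment 3. Nlrc5 (XM_544394.3), the transactivator of class I antigen presentation genes, went from 1.31 to 1.90 RPKM to 2.88 to 3.73, by 1.00 (SE 0.10, adjusted p = 0.00017), with no difference beyond error between experiments (-0.05, adjusted p = 0.88). Ddx60†, a helicase of antiviral defence, rose by 1.29. Ccl2, a chemokine, was at 0 to 1.45 RPKM in scribKD and 2.41 to 4.23 in scribRES cells, on 0 to 50 reads, and was called in experiment 2 but not in experiment 3 (adjusted p = 0.16).

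Among 19 tested chromatin and transcription coregulators, 9 were higher on average and 0 lower, and 14 were higher within experiment 3. At an unadjusted p under 0.05 the limma test had 18 higher and 0 lower on average, and voom called 9 and 0. The list median was 0.40 in experiment 2 and 0.57 in experiment 3. 15 of the 19 are on the study's list for this comparison, and without the 8 named only there 5 of 11 were higher. Some of these 11 are on that list as well. Crebbp, a histone acetyltransferase, had 5.42 to 5.79 RPKM in scribKD and 8.78 to 10.5 in scribRES cells, where the controls had 8.12 to 10.8. Kat6a, another acetyltransferase, had 3.29 to 4.71 against 5.69 to 7.58 RPKM, Hdac5, a deacetylase, rose by 0.77 and Hipk2†, a kinase that acts on transcription regulators, by 1.03, while Gse1† was called within experiment 3 (0.60) and not within experiment 2 (-0.06). These are long transcripts, with a median of 6203 bases against 1552 over all tested, and long transcripts were higher in scribRES cells in general. In the longest of 4 equal groups of tested transcripts (median 3420 bases) the median difference was 0.077 in experiment 2 and 0.073 in experiment 3, with 7.99% called higher and 1.82% lower, whereas in the shortest (median 477 bases) it was -0.13 and -0.01, with 6.87% higher and 6.75% lower. The part of transcript length in the change of this list was not tested.

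Of 10 tested genes of the stress kinase and endoplasmic reticulum stress list, 6 were higher on average and 0 lower (9 and 1 by limma at an unadjusted p under 0.05, 6 and 0 by voom), against 15.7% higher and 8.20% lower among named transcripts. The 1 was Bag2†, at -0.44 and named after its values were seen. 5 rose within both experiments, and 7 of the 10 are on the study's list for this comparison. Without the 3 named only there, 4 of 7 were higher on average, against 12.3% of transcripts named in another source. Some of these 7 are on the study's list as well, so this count is not free of its selection. Atf5, a transcription factor of the ATF4 family, had 4.55 and 4.80 against 26.6 and 24.9 RPKM in experiment 2 and 28.0 and 29.8 against 50.6 and 39.8 in experiment 3. Aldh1l2, a mitochondrial folate enzyme, rose by a larger amount in experiment 3 (1.55) than in experiment 2 (1.08), and the test of this difference did not pass (adjusted p = 0.052). Atf3†, a stress-induced transcription factor, had 82.3 and 83.4 against 242 and 246 RPKM in experiment 2 and 168 and 188 against 253 and 267 in experiment 3. Sdf2l1, a chaperone component of the endoplasmic reticulum, rose in experiment 2 (69.96 and 71.1 to 241 and 226 RPKM) and was not called in experiment 3 (195 and 222 against 178 and 192), a difference of -1.90 (adjusted p = 2.4e-05).

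Of 15 tested hypoxia and glycolysis genes 7 were higher and 2 lower on average, and 9 of the 15 are on the study's list for this comparison. Without the 5 named only there, 5 of 10 were higher and 1 lower. Adm, the vasodilator adrenomedullin, had 11.2 and 13.2 against 38.8 and 35.7 RPKM in experiment 2 and 19.8 and 26.6 against 45.5 and 38.8 in experiment 3. Vegfa†, the angiogenic factor, rose by 1.82 and 0.53 in the experiments and Ddit4†, an inhibitor of mTORC1, by 2.09 and 0.58, while Angptl4, an inhibitor of lipoprotein lipase, fell by 0.80 on average. Of 24 immediate early genes 8 were higher and 3 lower on average, against 15.7% and 8.20% of named transcripts, and within experiment 2 alone 9 were higher and 7 lower. Without the 5 named only on the study's list for this comparison, 5 of 19 were higher and 2 lower on average. Fosb had 9.23 and 2.92 RPKM in scribKD and 37.1 and 30.1 in scribRES cells of experiment 2, and 35.5 and 48.3 against 88.6 and 86.2 in experiment 3, where it was not called (limma adjusted p = 0.11). Egr2† had 1.44 to 2.38 RPKM in scribKD and 2.82 to 8.32 in scribRES cells and rose more in experiment 3 (2.06) than in experiment 2 (0.67). Ptgs2, the inducible cyclooxygenase, fell from 29.9 and 32.8 to 8.51 and 10.5 RPKM in experiment 2 and from 10.4 and 5.72 to 4.06 and 4.39 in experiment 3, and Sgk1† and Fosl1 also fell (named after their values were seen). In controls, too, many of these genes differed by experiment, Fosb from 21.1 and 25.6 to 103 and 79.6 RPKM and Adm from 20.9 and 17.8 to 83.5 and 74.5.

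Of the 58 transcripts called in opposite ways, 43 were lower in experiment 2 and higher in experiment 3 (0.326%), and 15 the reverse (0.114%). Among named transcripts these shares were 1.36% and 0.226%. With median-ratio scaling of the libraries the split was 39 against 23. The count of 58 fell to 32 without the first scribKD library of experiment 3 and to 34 without the first scribRES library of experiment 3. Of the 43, scribRES cells had the higher level in experiment 3 in 34, scribKD cells in 3 and control cells in 14, and of the 15 these counts were 3, 13 and 11. The counts of scribRES and scribKD cells follow in part from how these transcripts were chosen. Lrp2 (XM_535946.3), the endocytic receptor megalin of the proximal tubule, had 1.57 and 1.67 RPKM in scribKD and 0.473 and 0.319 in scribRES cells of experiment 2, and 0.434 and 0.663 against 2.76 and 2.22 in experiment 3. Its control libraries ranged from 3.30 to 4.81. The difference between experiments was 3.82 (SE 0.41, limma adjusted p = 0.00046). Cldn2 (AF358907.1), the claudin that forms cation pores in leaky epithelia, had 41.7 and 40.0 against 11.9 and 10.7 RPKM in experiment 2 and 65.3 and 84.6 against 165 and 159.9 in experiment 3, and all controls were higher (173 to 296). In scribKD cells it stayed within 40.0 to 84.6 RPKM, so the change of sign came mainly from the scribRES libraries. Csf2 (NM_001003245.1), the cytokine GM-CSF, had 99.4 and 97.3 against 40.0 and 37.4 RPKM and then 10.3 and 9.99 against 24.6 and 23.5. Here scribKD and control cells (76.2 and 54.5, then 14.4 and 16.0) both dropped from experiment 2 to 3 by more than scribRES cells did.

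Txnip (XM_533037.3), an inhibitor of thioredoxin and of glucose uptake, had 37.5 and 43.1 against 11.6 and 12.7 RPKM in experiment 2 and 16.4 and 19.1 against 33.3 and 30.3 in experiment 3, with controls steady at 43.5 to 50.02. Samd11 had 2.35 and 3.0 against 1.18 and 1.13 RPKM and then 0.747 and 1.40 against 4.31 and 3.97. Podn, a small leucine-rich proteoglycan, had 4.57 and 4.66 against 1.43 and 1.12 RPKM and then 5.03 and 7.02 against 10.9 and 9.70. In the reverse class 4 transcripts had a name. Dsg3, a desmosomal cadherin, had 39.6 and 37.3 against 61.9 and 65.4 RPKM in experiment 2 and 36.8 and 32.6 against 22.6 and 23.8 in experiment 3, so that scribKD cells held their level and scribRES cells changed. Nqo1, a quinone reductase of the oxidative stress response, had 568 and 627 against 1049 and 1067 RPKM and then 1616 and 1055 against 864 and 866. Its scribKD libraries of experiment 3 differed from each other by more than scribRES libraries differed between experiments. Cdh17†, an intestinal cadherin, had 30.6 and 27.9 against 49.5 and 51.3 RPKM and then 69.6 and 62.9 against 43.7 and 49.1, and Col9a2, a cartilage collagen chain, changed from 0.52 to -0.55.

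**Figure D3:**
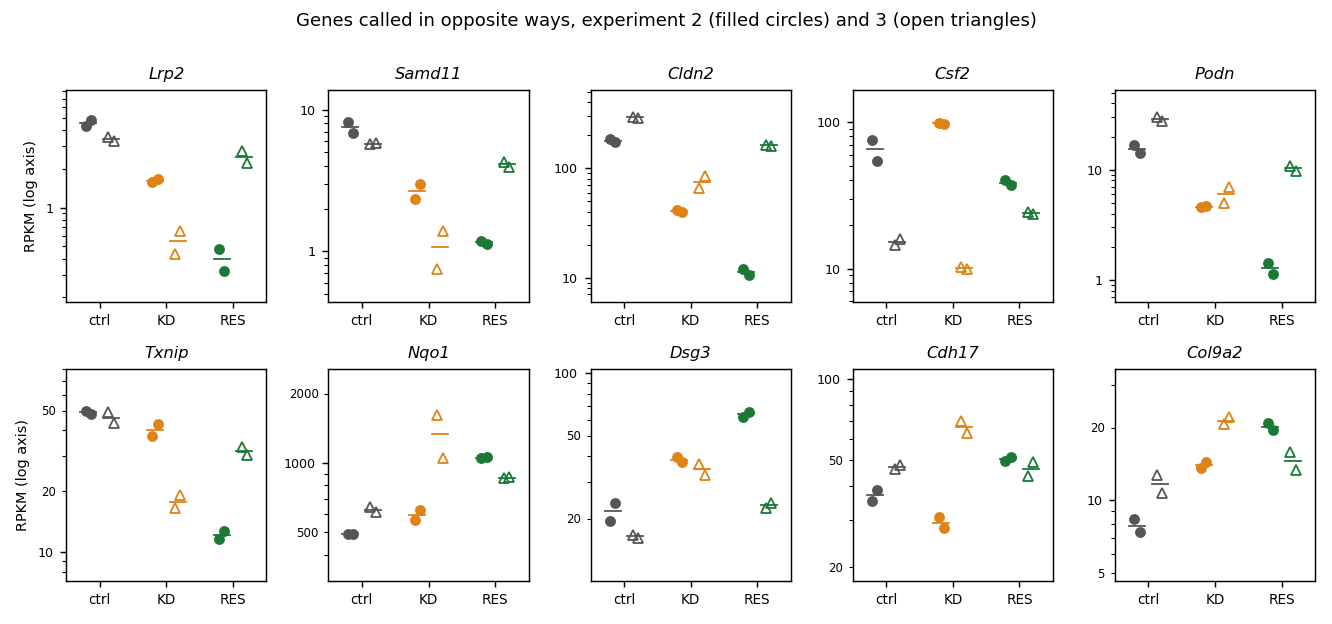
RPKM on a log axis in each library for the 6 named genes with the widest change from lower to higher and the 4 named genes that changed from higher to lower, drawn as in the plot of shared rises and falls (control grey, scribKD orange, scribRES green, filled circles experiment 2, open triangles experiment 3, bars at the means of 2 libraries). In the first 6 genes the scribRES libraries lie below scribKD in experiment 2 and above it in experiment 3, and in Nqo1, Dsg3, Cdh17† and Col9a2 the reverse.

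Genes of DNA replication split between the experiments as a list. Of 9 tested, 0 were called on average over both (3 higher and 2 lower by limma at an unadjusted p under 0.05, 0 by voom), 3 were lower within experiment 2, 4 were higher within experiment 3, and 5 differed between experiments, all toward higher values in experiment 3. Over all tested transcripts 18.4% differed between experiments, 9.85% toward higher values in experiment 3. The share among named transcripts, which hold more changed ones, is not given here. In other lists 11 of 24 immediate early, 16 of 32 matrix and 12 of 26 junction genes differed. Fewer did so in the interferon (3 of 15) and chromatin lists (1 of 19). The median of the replication list was -0.27 in experiment 2 and 0.40 in experiment 3. Rrm2 (XM_540076.3), a subunit of ribonucleotide reductase, had 324 and 312 against 193 and 189 RPKM in experiment 2 and 185 and 191 against 326 and 326 in experiment 3, a difference of 1.53 (SE 0.05, adjusted p = 6e-06) on 2913 reads or more. Mcm2, a subunit of the replicative helicase, had 46.0 and 43.2 against 26.8 and 28.8 RPKM and then 24.2 and 24.6 against 30.7 and 32.2. Controls were above scribKD cells in both genes and experiments (444 to 741 RPKM for Rrm2, 35.7 to 69.0 for Mcm2). Of 11 mitosis genes Cenpf and Aspm, which act at kinetochores and spindle poles, were higher on average (0.72 and 0.55) and 0 lower (6 and 1 by limma at an unadjusted p under 0.05, 2 and 0 by voom), and Mybl2, a cell cycle transcription factor, was called only within experiment 3 (0.51).

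Targets of YAP and MRTF, the transcription regulators that respond to cell shape and tension, also differed by experiment. Of 9 tested, 0 were called on average (4 higher and 2 lower by limma at an unadjusted p under 0.05, 0 by voom), 3 were lower within experiment 2, and 6 were higher and 1 lower within experiment 3. Of these 9 genes 8 differed between experiments, against 18.4% of all tested transcripts (the share of named ones, which hold more changes, is not given). In 7 the difference was toward higher values in experiment 3 and in 1, Myof (named after its values were seen), toward lower ones (-0.71). 7 of the 9 are on the study's list for this comparison. Ankrd1†, a muscle and tension-induced repeat protein, had 36.4 and 34.5 against 22.9 and 23.5 RPKM in experiment 2 and 3.73 and 2.68 against 5.67 and 6.70 in experiment 3, while controls had 0.316 to 4.53. Between experiments this gene changed by more than scribKD and scribRES cells differed, and both lay above control within each experiment. Among 15 TGF-beta and BMP signalling genes 4 were lower and 2 higher on average. Between experiments 9 of the 15 differed, all toward higher values in experiment 3. The share in that direction was 9.85% over all tested transcripts and is not given for named ones. Fst, an extracellular antagonist of activin, had 12.7 and 10.9 against 5.11 and 7.01 RPKM and then 5.18 and 4.05 against 2.59 and 2.55, far below the controls of experiment 2 (81.9 and 80.0). Bmpr1b, a BMP receptor, rose from 1.97 to 5.12 RPKM to 5.98 to 9.99 (1.21, SE 0.08, adjusted p = 2.5e-05).

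In the extracellular matrix list of 32 tested genes, 6 were higher and 7 lower on average, 4 and 9 within experiment 2 and 17 and 6 within experiment 3. 24 of the 32 are on the study's list for this comparison. Without the 12 named only there, 4 of 20 were higher and 5 lower on average. Tgfbi (XM_538640.3), a matrix protein induced by TGF-beta, had 124 and 105 RPKM in scribKD and 118 and 125 in scribRES cells of experiment 2, and 6.41 and 5.27 against 18.1 and 25.6 in experiment 3. The rise of 1.87 in experiment 3 thus occurred at a level far below that of experiment 2, and controls moved alike (51.2 and 51.2, then 3.28 and 3.02). Col12a1, a fibril-associated collagen, showed the same pattern, with 80.7 and 69.6 against 92.4 and 100.3 RPKM and then 2.99 and 2.68 against 7.19 and 9.47. Serpine2, a protease inhibitor of the matrix, fell alike in both experiments (-1.04 and -1.13), from 22.6 to 28.0 RPKM to 10.4 to 13.0. Adamts1, a metalloproteinase, was called within experiment 2 only (4.14 and 4.03 to 0.750 and 0.991 RPKM), with a difference of 2.10 between experiments (SE 0.31, adjusted p = 0.0019).

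Junction genes moved in both directions. Of 26 tested, 7 were higher and 5 lower on average, and 20 are on the study's list for this comparison. Without the 7 named only there, 4 of 19 were higher and 3 lower. Gjb5†, a gap junction connexin, fell by 0.80. Bcam†, a laminin receptor, had 145 and 138 against 53 and 52.8 RPKM and then 275 and 283 against 176 and 163. Cgnl1†, paracingulin of the tight and adherens junctions, rose from 1.75 and 1.42 to 13.2 and 12.5 RPKM in experiment 2 and from 5.22 and 6.16 to 8.54 and 7.87 in experiment 3. Of 5 polarity genes Celsr1, a planar polarity cadherin, was called on average (0.56, limma adjusted p = 0.0024), within experiment 3 but not experiment 2.

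Transport and lipid genes made up the remaining lists. Of 41 solute carriers 10 were higher and 1, Slc4a11 (named after its values were seen), lower on average, where 15.7% of named transcripts were higher and 8.20% lower. Between experiments 17 of the 41 differed, 12 toward higher and 5 toward lower values in experiment 3. The share was 18.4% over all tested transcripts and is not given for named ones, which hold more changes. Slc1a4†, a neutral amino acid transporter, had 13.3 to 27.3 RPKM in scribKD and 34.3 to 36.9 in scribRES cells, Slc35c1, the Golgi carrier of GDP-fucose, rose from 11.9 to 24.4 RPKM to 24.8 to 37.0, and Slc39a11, a zinc transporter, from 10.0 to 11.9 to 17.4 to 18.8. Slc7a8 and Slc22a12, carriers of amino acids and of urate, were called within experiment 3 (1.51 and 1.29) and not within experiment 2 (0.35 and -0.19), and Slc45a3† changed sign from -0.81 to 0.60. Of 5 ABC transporters Abcb1a and Abcc2 were lower and Abca1, the cholesterol exporter, higher on average. Abcc2 rested on as few as 2 reads in a scribRES library and was called in experiment 2 only. Of 9 genes of sterol and lipid synthesis 4 were higher and 2 lower. Acsl1, which activates fatty acids, had 32.0 to 36.3 RPKM in scribKD and 52.8 to 64.6 in scribRES cells, and Lpin1†, a phosphatidate phosphatase, rose by 0.83 and Srebf1, the regulator of fatty acid synthesis, by 0.55. Fads1, a fatty acid desaturase, fell by 0.61 and Elovl6, an elongase, changed from -0.58 to 0.39.

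Markers of cell state gave few shared changes. Of 12 keratins and squamous markers (the pattern Krt also takes in Krtcap2, no keratin) 0 were higher and 4 lower on average (3 and 7 by limma at an unadjusted p under 0.05, 0 and 4 by voom). Sfn, the stratifin of stratified epithelia, was called in experiment 2 only (868 and 844 to 363 and 386 RPKM) and Krt16, a keratin of activated epidermis, in experiment 3 only (26.0 and 23.0 to 9.05 and 9.98). Krt80 and Serpinb5 were called on average and within a single experiment each. Of 9 renal epithelial markers Scnn1a, a subunit of the epithelial sodium channel, rose by 0.84 and 0.85 in the experiments, Spp1, the phosphoprotein osteopontin, fell from 839 to 1510 RPKM to 498 to 777, and 2, Lrp2 and Cldn2, changed sign. The summed RPKM of the renal list was 2310 to 2540 in scribKD and 1962 to 2426 in scribRES cells. This sum includes Spp1, whose transcript in the files is only 81 bases long, so that its high RPKM rests on 761 to 2045 reads. S100a4 fell by 0.64 and Vim, at 0.44 and 0.14, was not called. The ribosomal protein genes summed to 7207 to 9354 RPKM in scribKD and 6595 to 8933 in scribRES cells, and the transcript named Rpl35† was the 1 of 6 called. At 2.65 to 9.04 RPKM it lay far below the other 5, whose mean levels were 1056 to 1721 RPKM, so this name is doubtful.

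**Figure D4:**
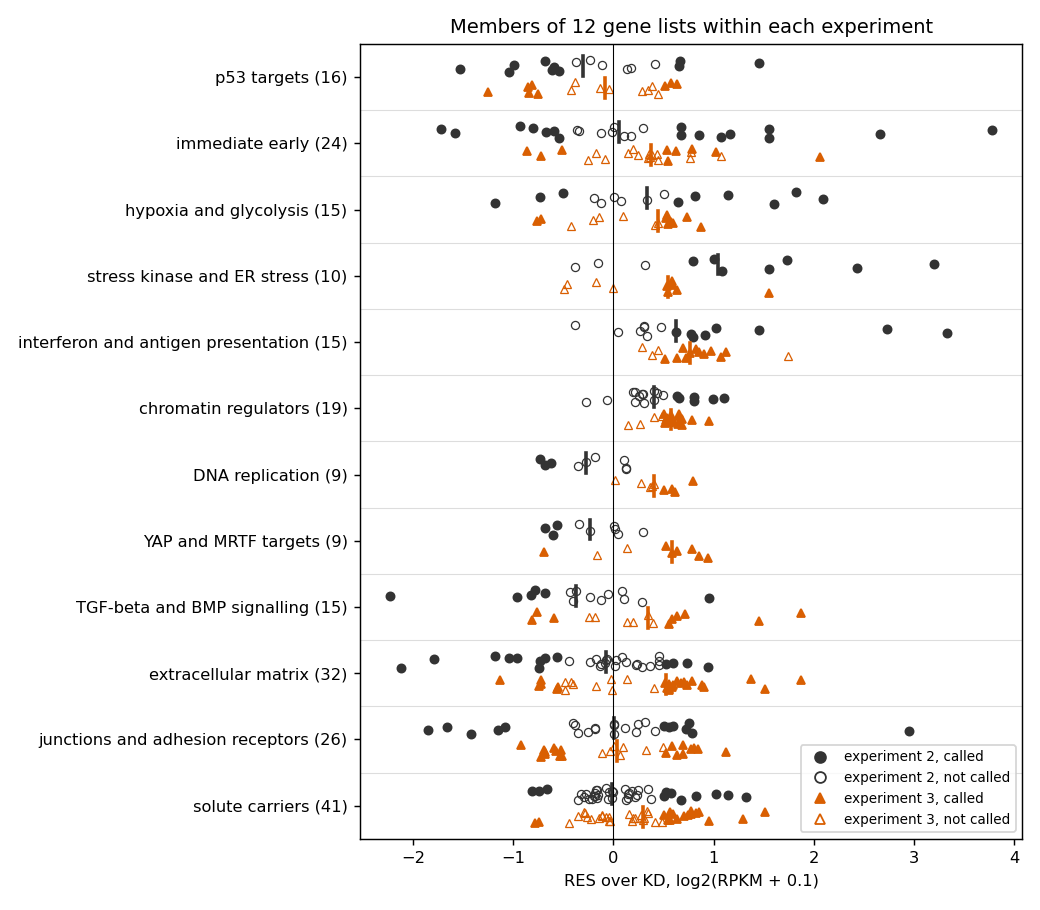
Log2 difference of scribRES over scribKD for each tested member of 12 gene lists (number of members in brackets) in experiment 2 (dark circles) and experiment 3 (orange triangles), with filled symbols for calls and vertical bars at the list medians. The medians of the interferon, chromatin and stress lists are above 0 in both experiments, and those of DNA replication (-0.27 and 0.40), YAP and MRTF targets (-0.23 and 0.58) and TGF-beta signalling (-0.37 and 0.34) change sign.

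Of the transcripts called the same way in both experiments, those higher had a median length of 1782 bases and a median level of 8.03 RPKM, those lower 1023.5 bases and 12.4 RPKM, and all tested transcripts 1552 bases and 18.8 RPKM. The level enters the calls through the filter and the pseudocount, and these medians were not tested against each other. Across all tested transcripts the Spearman correlation of length with the difference was 0.162 in experiment 2 and 0.123 in experiment 3. Library totals of the populations overlapped, and the share of reads on the 10 most abundant transcripts was 5.0% to 5.81% in scribKD and 5.38% to 6.41% in scribRES libraries. The part of length, level or read depth in these differences was not tested.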

How the data were processed

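RNA-seq of MDCK-II cells was made in 3 experiments, of which experiments 2 and 3 hold scribRES cells. The authors filtered and trimmed single reads, aligned them to the dog genome CanFam 3.1 (cutadapt 1.0 and TopHat2 2.0.6, per the submitters' processing notes) and deposited RPKM for 21571 transcripts in each library. Whole reads were recovered from the RPKM for 18873 transcripts, and 2698 were 0 in every run. Here limma 3.58.1 (R 4.3.3) was fitted to log2(RPKM + 0.1), with 1 mean per population and experiment, on the 13180 transcripts with a mean above 1 RPKM. Contrasts were scribRES over scribKD on average, within each experiment, and experiment 3 minus experiment 2. Differences are on the log2(RPKM + 0.1) scale, which understates changes of low genes. A call needed a Benjamini-Hochberg adjusted p under 0.05 and a log2 difference over 0.5 in size. The script was tested on simulated data, and figures were drawn with matplotlib 3.10.9 in Python 3.11.15.

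Names came from the study's gene table of scribKD against control cells (1378 transcripts), from RefSeq identifiers (410), or only from its table of scribRES against scribKD cells (171). Named were Scrib, the 10 largest rises and falls called the same way in both experiments, up to 6 changes of sign each way, and of each of 21 gene lists up to 4 called members with the largest mean change and 2 that differed between experiments. The members and lists were chosen with earlier results of these data known. Some transcripts are not reported here.

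Alternatives were no experiment term, experiment means as the unit, a block of same-numbered libraries, other pseudocounts, filters and scaling, no trend, no fold threshold, each library left out in turn, and, chosen after seeing the data, voom on the recovered reads. Replicate numbers gave no pairing: the correlation of same-numbered libraries' deviations from their group means was -0.031 in experiment 2 and 0.038 in experiment 3. Deviations from population means correlated, between libraries of different populations, by 0.288 to 0.434 within an experiment and by -0.426 to -0.264 between experiments. The latter mirror the former, because the deviations of a population cancel over its libraries, and are no separate result.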

Additional observations from a re-analysis of the deposited data

Results flagged for a closer look

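In 2428 transcripts, 18.4% of those tested, the difference between scribRES and scribKD cells was not the same in experiments 2 and 3 by the limma test of that difference. Of the 94 named genes 58 are among them. Some genes were named because they passed this test, so the 58 are not evidence of a larger share. The test rests on libraries of the same experiment and cannot tell a change with the experiment from variation between cultures. The values are the log2 difference of experiment 3 minus that of experiment 2. Differences of at least 1.5 toward higher values in experiment 3 were Lrp2 3.82, Samd11 3.04, Cldn2 2.98, Cldn16 2.94, Csf2 2.58, Podn 2.57, Txnip 2.55, Adamts1 2.1, Tgfbi 1.78, Sftpd† 1.65, Id1† 1.64, Ankrd1† 1.55 and Rrm2 1.53. Smaller ones in that direction were Slc22a12 1.48, Slc45a3† 1.41, Egr2† 1.39, Slc7a8 1.16, Col12a1 1.15, Sfn 1.12, Mcm2 1.05, Btg2 0.99, Elovl6 0.97, Bbox1† 0.95, Angptl4 0.75, Bcam† 0.7, Mybl2 0.69, Gse1† 0.66, Tapbp 0.66, Scrib 0.64, Gjb5† 0.57, Flt1 0.56 and Bmpr1b 0.5. Toward lower values in experiment 3 the larger differences were Nr4a1 -2.76, Fgf21 -2.67, Fam211a -2.46, Cgnl1† -2.42, Capn13 -2.29, Pla2g16 -2.18, Reps2† -1.95, Sdf2l1 -1.9, Isg20 -1.88, Atf5 -1.8, Krt16 -1.56 and Ddit4† -1.52. The smaller ones were Nqo1 -1.42, Fgfbp1 -1.34, Dsg3 -1.31, Cdh17† -1.3, Vegfa† -1.29, Abcb1a -1.12, Rpl35† (a doubtful name) -1.1, Col9a2 -1.07, Atf3† -1.01, Plk3 -0.94, Abca1 -0.86, Slc1a4† -0.78, Adm -0.73 and Srebf1 -0.54.

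Among the 4 scribKD libraries Slc39a11 had 1 library apart, at 10.0 RPKM against 11.7 to 11.9 in the others, with a gap of 0.875 of the range (above Dixon's critical value). Of 188 groups of 4 libraries examined, chance is expected to mark about 1 in 20.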

How the results depend on the processing

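The 1441 transcripts called on average became 291 without a term for the experiment, 0 with the experiment as the unit (limma, 1346 at an unadjusted p under 0.05), 942 at a mean above 5 RPKM, 865 with the study's filter put on RPKM and 7299 without a fold threshold (3567 higher). With replicate numbers as the block there were 1438 (1420 of them among the 1441), and 2306 in place of 2428 for the difference between experiments, which was 4768 without a fold threshold. The 366 that moved the same way became 233 with the study's filter and 1893 without a fold threshold. The 58 of opposite sign became 37 above 5 RPKM, 31 with the study's filter and 432 without a fold threshold. Leaving out 1 library gave 1334 to 1521, 2173 to 2345, 245 to 379 and 32 to 72 for these 4 counts. Voom, chosen after seeing the data, gave 1476, 2504, 412 and 71. Where a filter was stricter, fewer transcripts were tested. For single genes 2127 of 2308 comparisons kept the call, 181 lost it and 0 reversed, and with the experiment as the unit all 74 mean calls were lost. Transcripts with few reads limit the size of a fold.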
